A study of Mus musculus with 6 samples.

Results

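Normal epidermis from E16 mouse embryos served as the control on every array of a study of Sox4 and Sox11, transcription factors of the SoxC group. The 6 wild-type samples described here are those hybridised in one colour of the 6 two-colour arrays, out of 12 samples on the arrays in all, and each was read from the channel the labels name as wild-type littermate control, which was Cy3 on replicate 1 and Cy5 on replicate 2 of each comparison. The partners in the other colour were Sox4cKO, Sox11cKO or Sox4/11 dcKO epidermis, with 2 arrays each, so the wild-type samples form 3 sets of 2 that are named here after the partner (Sox4 arrays, Sox11 arrays, dcKO arrays). All channels were of strain 129SvEx:C57BL/6 and age E16, and the study's methods call the stage early E16.5. The knockouts were made with Cre driven by the keratin 14 promoter in mice with floxed Sox4 and Sox11. The methods give the founders as Sox4 fl/fl, Sox11 fl/fl animals that were also Sox12-/-, crossed to Cre mice of the FVB/N strain, and the strain in the labels does not mention FVB/N. Which floxed or Sox12 alleles the wild-type littermates carried, whether they carried Cre, how many embryos gave 1 sample and whether a wild-type RNA was used more than once are not given in the sources used here. Dorsal skin was treated with dispase and the epidermis peeled off, so a sample holds every cell that came away with the sheet, and in such bulk samples fewer cells of a type and less RNA per cell cannot be told apart.

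Epidermis grows from a basal layer of dividing keratinocytes that make keratins 5 and 14. Cells that leave this layer switch to keratins 1 and 10, and the uppermost ones, the granular cells, make the proteins of the cornified envelope, many of them encoded side by side in the epidermal differentiation complex. In the embryo the sheet is covered by the periderm, a transient outer layer with simple keratins that is shed when the cornified barrier forms, which in mice happens in the last days before birth.

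Values below are log2 channel values after background correction and normalisation, and a probe counts as detected when the scanner software marked it well above background. A gene is represented by its brightest named probe. Probes differ in how brightly they hybridise, so levels are compared between samples and never between genes. The median signal of the wild-type channel was 38.5 to 42 on the Cy3 arrays and 58 to 63.5 on the Cy5 arrays, and no spot was saturated. The number of arrays, with 2 wild-type samples in a set, limits the precision of every comparison. The p-values rest on each probe's spread between these samples, which limma draws towards a value common to all probes. In the fit of the sets that common value carried 5.975 degrees of freedom, against 2 from the probe's own samples. The labels call the samples biological replicates. Xist and the Y-linked genes given below differed between the 2 samples of the Sox4 arrays and between those of the Sox11 arrays, whose RNA therefore came from different embryos, while for the dcKO arrays only the label says so. Set, litter and day of preparation cannot be told apart.

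The wild-type samples carried the keratinocyte markers that define epidermis. Krt5 was at 15.97 and 16.02 on the Sox4 arrays, 15.88 and 15.86 on the Sox11 arrays, and 15.94 and 16.03 on the dcKO arrays (replicates 1 and 2, the order used throughout). Krt14, the partner of keratin 5, was at 14.29 and 14.32, 14.31 and 14.00, and 14.32 and 14.26. With these probes both basal keratins were level, with ranges of 0.17 and 0.32 after each dye was centred on its mean. Krt1 was at 15.71 and 15.86, 15.45 and 14.42, and 15.68 and 15.51, and its partner Krt10 at 15.98 and 16.46, 15.66 and 15.23, and 15.61 and 16.11. Both suprabasal keratins were lowest in replicate 2 of the Sox11 arrays, and neither differed between sets in limma's test (Sox11 minus Sox4, Krt1 -0.85 ± 0.26 SE, adjusted p = 0.22, and Krt10 -0.78 ± 0.23 SE, adjusted p = 0.224). A second Krt5 probe, also detected in all 6 samples, varied more and was lowest on the Sox11 arrays, at 11.85 and 11.75, 11.47 and 10.83, and 11.78 and 11.62 (Sox11 minus Sox4 -0.65, adjusted p = 0.161). A second Krt10 probe was also detected in all 6 samples and was lowest in replicate 2 of the Sox11 arrays (14.24, Sox11 minus Sox4 -0.38, adjusted p = 0.529).

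Sox4 was detected in all 6 wild-type samples, at 9.25 and 9.60, 8.94 and 8.78, and 9.27 and 9.14. Sox11 was well above background in 3 of the 6 (5.82 and 4.87, 5.04 and 5.43, and 5.52 and 5.45), and Sox12, the other SoxC gene, in 1 (5.07 and 5.07, 4.85 and 5.50, and 5.15 and 5.01). The probes of Sox11 and Sox12 therefore lay at the edge of detection in these samples, whose Sox12 alleles are not given, and none of the 3 genes differed between sets (lowest adjusted p = 0.223, Sox4 in the Sox11 against the Sox4 set). On the Sox4 arrays the Sox4cKO partners read 9.11 and 8.90 with the Sox4 probe, and on the Sox11 arrays the Sox11cKO partners read 5.30 and 5.26 with the Sox11 probe. The dcKO partners read 8.32 and 8.45 with the Sox4 probe and 4.57 and 4.97 with the Sox11 probe. Where these probes lie relative to the deleted parts is not given in the sources used here, so they do not check the labels. The study states that RT-qPCR was run on the epidermis before the arrays to verify the loss of Sox4, Sox11 or both.

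**Figure D1:**
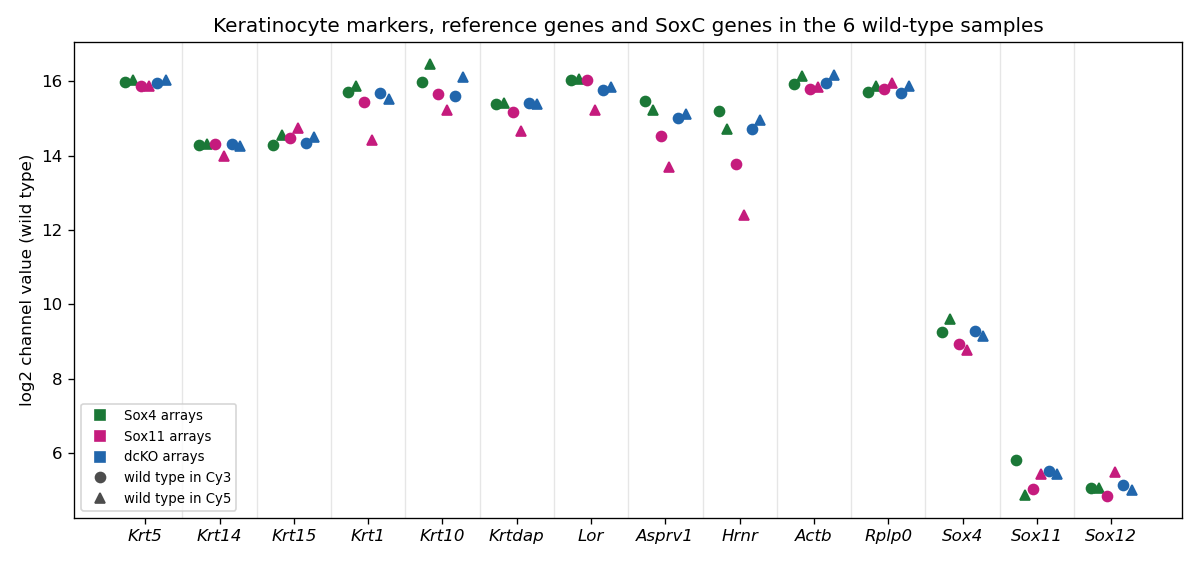
Log2 channel value (vertical axis) of keratinocyte markers, the reference genes Actb and Rplp0 and the SoxC genes in the 6 wild-type samples. Colour gives the array set and shape the dye. The brightest probes of the basal keratins Krt5 and Krt14 sit level in all 6 samples, Asprv1 and Hrnr are lower on the Sox11 arrays (13.68 and 12.41 in replicate 2), and the Sox11 and Sox12 probes lie near the bottom of the axis.

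Of 21366 named genes, 10742 (50.3%) were detected in all 6 wild-type samples, 8247 (38.6%) in none and 2377 in some but not all. Single samples had between 11663 and 12327 detected genes, the highest being replicate 1 of the dcKO arrays. Among protein-coding genes 53% were detected in all 6, against 11.1% of long noncoding RNAs and 29.8% of transcribed pseudogenes. Of the 10742 genes, 10385 were also detected in all 6 knockout channels, and no gene was detected in all 6 wild-type channels and in no knockout channel, or the reverse. Of 5756 genes with several probes, 2268 were detected in all 6 samples by every probe and 1323 by none, while 834 had a probe detected in all 6 beside a probe detected in none.

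**Figure D2:**
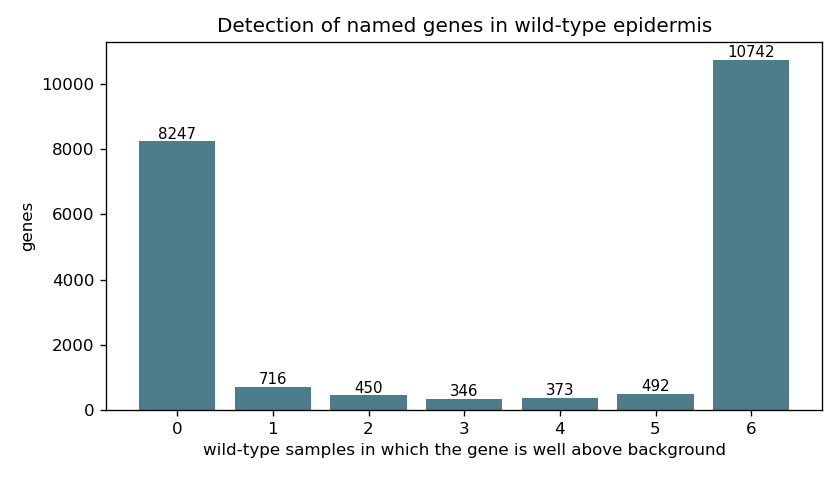
Number of named genes (vertical axis) by the number of wild-type samples in which their brightest probe was well above background. Most genes were either in all 6 samples (10742) or in none (8247), with 346 to 716 genes at each count between.

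Gene families chosen by their symbols show what this tissue transcribes. All 31 ribosomal protein genes of the small subunit and all 42 of the large subunit were detected in every sample, whereas of 1066 olfactory receptor genes, a group known for its use in the nose, 9 were (0.844%). Of 53 keratin genes 25 were detected in all 6 samples, 13 in some and 15 in none. Besides Krt5, Krt14, Krt1 and Krt10 the 25 included the basal Krt15, the suprabasal Krt77, the simple keratins Krt7, Krt8, Krt18 and Krt19, the periderm keratins Krt4, Krt6a and Krt17, and Krt23 and Krt80. Keratins of the hair shaft and inner root sheath were split. Krt25, Krt27, Krt33a, Krt33b and Krt86 were among the 15 detected in none. Krt72, Krt73 and Krt81 were among the 25 detected in all 6 samples, and Krt31, Krt34, Krt35 and Krt71 among the 13 detected in some. Of 19 Sox genes 7 were detected throughout (Sox4, Sox5, Sox6, Sox9, Sox10, Sox13 and Sox15). Of 39 Hox genes 17 were, and these lay in the Hoxa, Hoxb and Hoxc clusters, with no Hoxd gene detected in all 6. Of 11 laminin chains 10 were detected throughout, among them Lama3 and Lamb3, which encode chains of epidermal laminin-332. Of 19 Wnt ligands 10 were, among them Wnt3, Wnt4, Wnt6, Wnt7b and Wnt10a.

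The 30 brightest named probes were led by ribosomal proteins (among them Rps16, Rpl41, Rpl37a, Rpl10, Rps14, Rpl29, Rps27a, Rps26, Rplp0, Rplp1 and Rplp2) and other genes of or near the translation machinery (among them Tpt1, Fau and Rpl37rt), with Actb and the small heat shock protein Hspb1. Genes specific to keratinocytes stood in the same band: Krt5, Krt10, Dmkn (dermokine, secreted by suprabasal cells), Lor (loricrin, the main cornified envelope protein) and Perp (a desmosomal membrane protein). Lor was at 16.02 and 16.07, 16.03 and 15.22, and 15.75 and 15.85. The 30 also held Slc10a1, Elk1, Exosc2, Kctd14, Glrx2 and 2610028H24Rik. For Slc10a1 and Elk1 the second probe of the gene was detected in none of the 6 samples. The brightest probes of these names are therefore uncertain as measures of the gene.

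Most genes detected throughout ranged over less than 0.5 log2 units. Each value was set against the mean of the 3 wild-type samples of the same dye, and for the 10742 genes detected throughout the median SD between samples was 0.175 log2 units and the median range 0.407, with 63.8% of the genes ranging over less than 0.5. Among the steadiest of the 1000 brightest genes were Rps20 and Pabpc1, each with a range of 0.04, and Atp5h, Rpl11, Rps13, Rpl32, Ndufa3 and Cox8a, at 0.06 to 0.08. Rps20, for example, was at 15.09, 15.11 and 15.11 in the Cy3 samples and 15.26, 15.26 and 15.29 in the Cy5 samples. These ranges are of the brightest probe. A second Rps13 probe, also detected in all 6 samples, was less steady, at 14.76 and 14.61, 12.93 and 14.27, and 14.30 and 14.70. At the other end 981 genes (9.13%) ranged over more than 1 log2 unit and 231 over more than 2, up to 8.93. In 523 of the 981 the farthest sample was replicate 2 of the Sox11 arrays and in 248 it was replicate 1 of the same arrays, against 22 to 90 for each of the other 4 samples. Fetub, a fetuin, was among the most variable, at 11.82 and 11.23, 7.74 and 5.45, and 11.44 and 11.24, and Krtap13, a hair keratin-associated protein gene, was at 15.18 and 14.70, 12.79 and 7.72, and 15.19 and 14.60. In both genes replicate 2 of the Sox11 arrays was the lowest sample and replicate 1 the next.

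The wild-type samples of the Sox11 arrays stood apart. Between wild-type samples of the same dye, the Sox4 and dcKO arrays differed more than 2-fold in 111 (Cy3) and 82 (Cy5) of the 10742 genes, with correlations across genes of 0.991 and 0.992. The Sox11 sample differed from the Sox4 sample in 483 (Cy3) and 602 (Cy5) genes and from the dcKO sample in 329 and 558, with correlations of 0.961 to 0.979. Of the 21366 named genes, 93 were well above background in both Sox4-array and both dcKO-array samples and in neither Sox11-array sample. Genes missing in the same way only on the Sox4 arrays numbered 44, and only on the dcKO arrays 3. Detected in 1 set alone were 46 in the Sox11-array, 14 in the Sox4-array and 34 in the dcKO-array samples. Upk2, a uroplakin gene, was among the 46 (6.15 and 6.47 against 4.95 to 5.20). The correlations are descriptions across genes, which are not independent replicates. Knockout samples of the same arrays split the same way, with 155 and 245 genes between the Sox4 and dcKO arrays and 326 to 617 in pairs that include the Sox11 arrays. Within an array, where both channels share the spots, wild type and knockout differed more than 2-fold in 46 to 244 genes. On the Sox4 arrays (72 and 47 genes) and the Sox11 arrays (46 and 192) this was fewer than between the wild-type sample and any other wild-type sample of its dye. On the dcKO arrays (244 and 224) it was more than between the dcKO and Sox4 wild-type samples and fewer than between the dcKO and Sox11 ones.

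**Figure D3:**
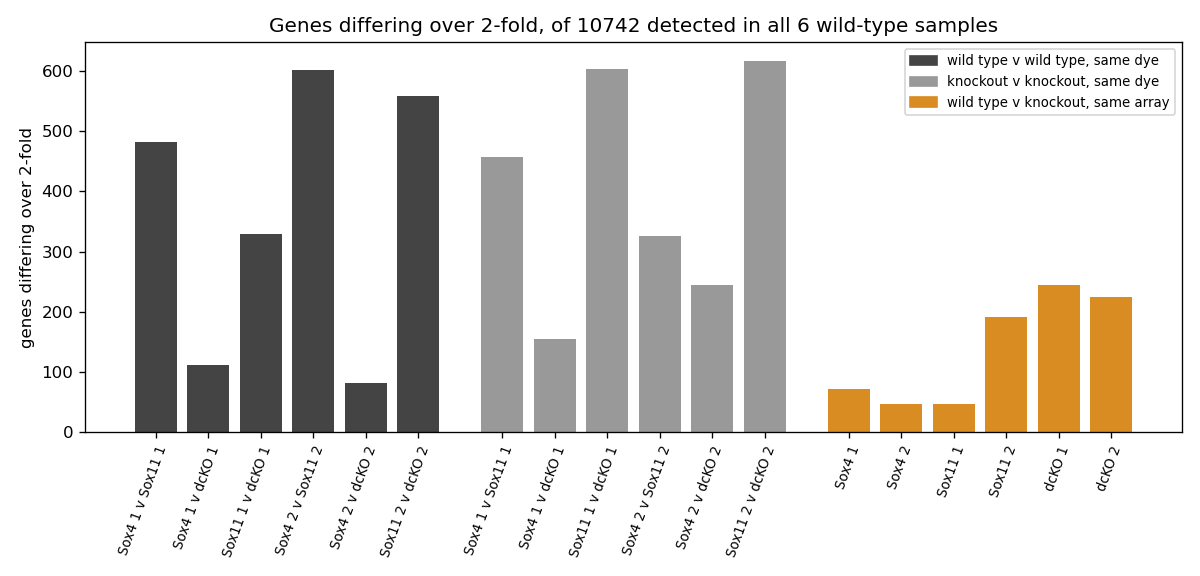
Number of genes (vertical axis, of the 10742 detected in all 6 wild-type samples) that differed over 2-fold in each pair of samples named below the bar. Dark bars compare wild-type samples of one dye, grey bars knockout samples of one dye, and orange bars the 2 channels of 1 array. Every pair of different arrays that includes a Sox11 array differs in at least 326 genes, while the Sox4 and dcKO wild-type samples differ in 111 and 82 genes.

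limma's F test over the 3 sets, with the dye as a covariate, called 648 of 55680 probes at an adjusted p under 0.05, or 452 of the 21366 genes (2.12%). Against the Sox4 set, the Sox11 set was higher in 152 genes (0.711% of those tested) and lower in 426 (1.99%), of which 39 and 183 passed an absolute log2 change of 1.5. Against the Sox11 set, the dcKO set was higher in 305 genes (1.43%) and lower in 74 (0.346%). The dcKO set differed from the Sox4 set in 6 genes (0.0281%). The Sox11 set enters both of the larger comparisons, so they are not independent of each other. The adjusted p-values depend on the processing. On the scanner software's own processed signal no probe was called in any of these comparisons. That signal was used without the normalisation steps applied here, so it differs in more than background correction. The 578 genes called between the Sox11 and Sox4 sets had a median absolute log2 change of 1.69 there against 1.31 here. Each had the same direction, but they were picked for their difference in the same scans, so this is no separate check. Without replicate 2 of the dcKO arrays the dcKO against Sox11 count was 131 probes in place of 560.

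Genes of the late cornified envelope showed the widest differences. Lce1a1, a small envelope protein of the epidermal differentiation complex, was at 15.68 and 13.35 on the Sox4 arrays, 6.75 and 5.47 on the Sox11 arrays, and 14.17 and 13.30 on the dcKO arrays. The 2 Sox11-array samples lay more than 6 log2 units below the other 4, a change of -8.41 ± 0.30 (SE) against the Sox4 set (339-fold lower, adjusted p = 7.76e-05). The Sox11cKO partners on those arrays were at 5.54 and 5.43, and the Sox4cKO and dcKO partners at 15.30 and 13.74, and 15.99 and 15.96. The low level was thus shared by both genotypes on the Sox11 arrays.

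Other genes of the Lce1 cluster were also lowest on the Sox11 arrays. Lce1a2 was at 16.14 and 13.39, 7.48 and 5.95, and 14.06 and 13.38 (-8.05 ± 0.39 SE, adjusted p = 0.000193), and Lce1m at 15.15 and 10.84, 5.86 and 5.04, and 12.75 and 10.30 (-7.55 ± 0.63 SE, adjusted p = 0.002), where replicate 2 of the Sox11 arrays was not well above background. Lce1b, Lce1e and Lce1f were not well above background on either Sox11 array and were at least 57.4-fold, 53.1-fold and 62.7-fold lower there than on the Sox4 arrays, where a bound sets the mean of the detected set against, on each dim array, the higher of the probe's own value and the lowest detected probe. The Lce1 genes are close copies of each other and their probes may share target, so they cannot be read as separate observations. Replicate 1 of the Sox4 arrays was the highest wild-type sample for each Lce1 gene named here, with Lce1g at 12.29 there and 7.25 in replicate 2, and for Lce1g, Lce1h, Lce1k and Lce1l the Sox11 against Sox4 difference was not called (adjusted p from 0.0623 to 0.261).

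To show what the Lce1 genes share beside their values, the last 100 bases before the annotated start of 4 of them are shown, from the RefSeq promoter table on GRCm38.p6 (Lce1a1 at chr3:92648308-92648407, minus strand; Lce1a2 at chr3:92670316-92670415, minus; Lce1c at chr3:92679147-92679246, plus; Lce1m at chr3:93019062-93019161, minus). Each is written 5′ to 3′ on its gene's strand, and the capitals mark 2 motifs, CCACTGTNTCACAGG and ATAAAA.
Lce1a1: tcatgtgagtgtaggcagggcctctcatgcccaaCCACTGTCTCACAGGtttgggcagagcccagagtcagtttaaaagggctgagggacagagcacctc
Lce1a2: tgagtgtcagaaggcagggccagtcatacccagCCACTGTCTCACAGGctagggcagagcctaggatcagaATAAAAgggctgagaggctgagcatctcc
Lce1c: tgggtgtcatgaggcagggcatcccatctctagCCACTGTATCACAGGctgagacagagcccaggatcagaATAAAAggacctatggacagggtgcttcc
Lce1m: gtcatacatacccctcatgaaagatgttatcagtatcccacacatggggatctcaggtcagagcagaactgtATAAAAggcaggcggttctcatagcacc

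The first motif is the longest block that Lce1a1, Lce1a2 and Lce1c share there with at most 1 differing base (N). It was taken from these sequences and then searched on both strands of all 32851 promoters of the table (250 bases before to 50 after the start). It was in 6 (0.0183%), all of Lce1 genes (Lce1a1, Lce1a2, Lce1b, Lce1c, Lce1e and Lce1h), out of 13 Lce1 promoters, and starts at position -66 or -67 relative to the start in the sequences shown. ATAAAA was in 12 of the 13 Lce1 promoters and in 18.5% of all. Lce1a1 lacks ATAAAA and Lce1m lacks the first motif in the 100 bases shown. A match is a description of these sequences and not of a binding site.

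Over the whole list of Lce and Sprr genes of the complex, 35 of 37 had a named probe, 10 were detected in all 6 samples, 22 in some and 3 in none (Sprr2b, Sprr2i and Sprr4). Of the 35, 17 were lower in the Sox11 than in the Sox4 set (1.99% of all genes were) and none was higher, with a median change of -3.21 over the 35 beside 0.02 over all genes. The 17 were Lce genes: 10 of the Lce1 cluster, Lce3a to Lce3f, and Lce6a. No Sprr gene was called between the wild-type sets. Sprr2a2 stayed between 13.91 and 14.26 in all 6 samples, Sprr1a between 10.58 and 12.03, and Sprr1b was lowest in replicate 2 of the Sox11 arrays (13.24 and 12.51, 12.82 and 10.62, and 13.81 and 11.89, adjusted p = 0.16). Of the 35, 11 were higher in the dcKO than in the Sox11 set, beside 1.43% of all genes. The count of 11 was smaller without replicate 2 of the dcKO arrays and larger without either sample of the Sox4 arrays.

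Other genes of the granular and cornified layers were also lower on the Sox11 arrays: 10 of 17 with a probe, and none higher, with a median change of -1.48. Over all genes 1.99% were lower and 0.711% higher. Cdsn, corneodesmosin, which holds cornified cells together, was at 12.90 and 11.68, 9.27 and 5.51, and 12.18 and 10.99 (-4.90 ± 0.54 SE, adjusted p = 0.00599). Klk5, a protease that later cuts it, was at 12.68 and 12.20, 9.71 and 8.18, and 12.06 and 11.69 (-3.49 ± 0.27 SE, adjusted p = 0.00121). Smpd3, a sphingomyelinase, was at 10.73 and 9.47, 6.52 and 5.48, and 10.21 and 9.46 (-4.10 ± 0.16 SE, adjusted p = 0.000104). In each of these 3 genes both Sox11-array samples lay below the other 4. Kprp, keratinocyte proline-rich protein, was detected in neither Sox11-array sample and was at least 64.6-fold lower than on the Sox4 arrays. The others were Ivl (involucrin, -2.93), Crct1 (-2.79), Klk7 (at least 5.0-fold lower), Hrnr (hornerin, -1.87), Asprv1 (the protease of filaggrin processing, -1.24) and Casp14 (-1.02), with adjusted p from 0.0022 to 0.0374. Lor was not called (-0.42 ± 0.23 SE, adjusted p = 0.544). The count of 10 was 4 without the replicate block and 6 with a filter on dim probes. In the dcKO against the Sox11 set 8 of the 17 were higher, beside 1.43% of all genes. The count of 8 was smaller without replicate 2 of the dcKO arrays.

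**Figure D4:**
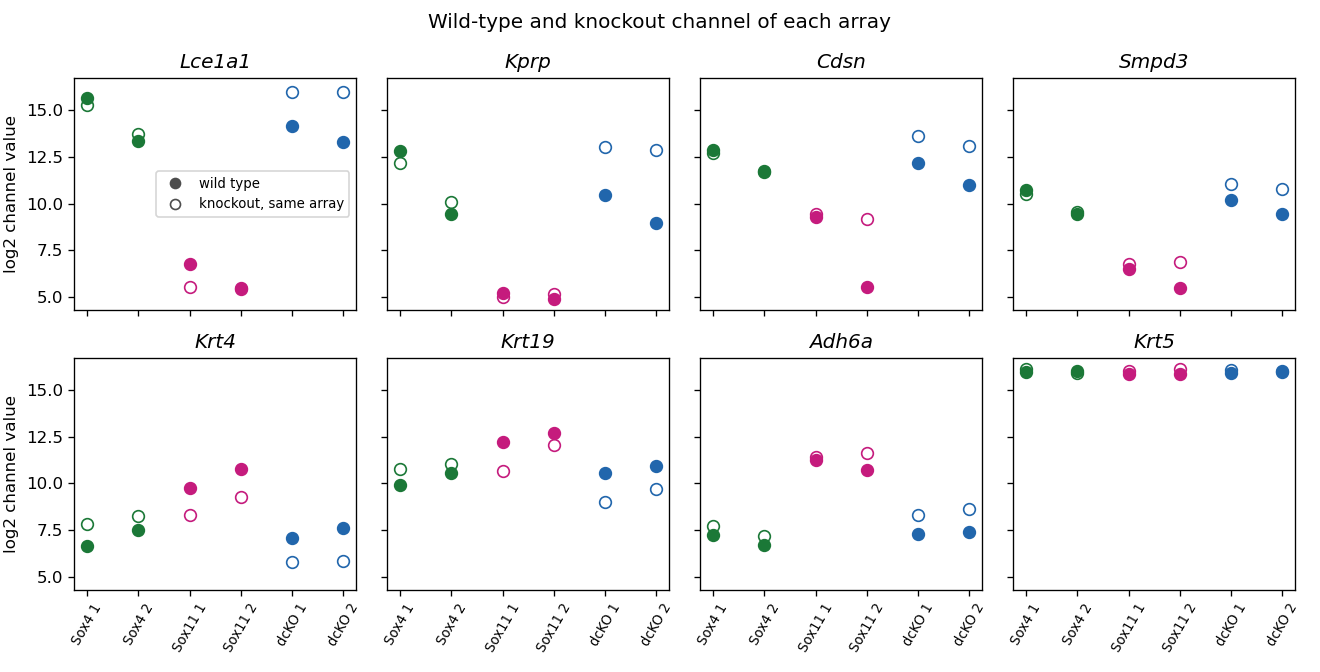
Log2 channel value (vertical axis) of 8 genes on the 6 arrays; filled circles are the wild-type sample and open circles the knockout on the same array, coloured by set. Lce1a1, Kprp, Cdsn and Smpd3 are lowest on the Sox11 arrays in both channels, Krt4, Krt19 and Adh6a are highest there in wild type, and the brightest Krt5 probe is level.

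The periderm list genes Krt4 and Krt19 were higher on the Sox11 arrays. Krt4, a keratin of mucosa and periderm, was at 6.62 and 7.48, 9.77 and 10.76, and 7.07 and 7.58, so both Sox11-array samples lay above the other 4 (3.22 ± 0.16 SE, 9.29-fold higher, adjusted p = 0.000198). Krt19 was at 9.91 and 10.53, 12.22 and 12.70, and 10.53 and 10.95 (2.24 ± 0.14 SE, adjusted p = 0.000557). These were the 2 of 9 periderm list genes called, and none was lower, beside 0.711% of all genes higher and 1.99% lower. Krt18 was at 9.89 and 9.97, 11.33 and 10.42, and 9.93 and 9.53 without being called (adjusted p = 0.112). The wound and periderm keratin Krt17 was at 12.22 and 12.31, 12.12 and 11.60, and 12.02 and 12.12 (-0.41, adjusted p = 0.454). Krt13 also had negative changes, of -0.39 and -0.64 with its probes, and neither was called. Cldn6 was detected in no sample. The median change over the 9 genes was 0.52. Without replicate 2 of the Sox11 arrays 4 of the 9 were called. In the Sox11cKO partners Krt4 was at 8.33 and 9.25, between the wild-type samples of the Sox11 arrays and those of the other sets.

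Genes of cell junctions were called in both directions. Cldn3, a tight junction claudin, was at 5.85 and 5.76, 7.73 and 8.17, and 6.00 and 6.06 (2.14 ± 0.17 SE, adjusted p = 0.00152), and Dsc2, a desmosomal cadherin of early and simple epithelia, at 6.30 and 7.36, 8.55 and 9.01, and 6.72 and 7.21 (1.95 ± 0.18 SE, adjusted p = 0.00307). The connexin gene Gjb5 was at least 1.84-fold lower (adjusted p = 0.0468). Of the 23 junction genes 2 were higher, Cldn3 and Dsc2, and 3 lower, beside 0.711% higher and 1.99% lower over all genes, and Cdh1, Dsp, Pkp1 and Perp were not called. Dsp, for example, ranged from 14.04 to 14.65.

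Other genes were among the 10 with the smallest adjusted p in each direction. Higher in the Sox11 than in the Sox4 set were Adh6a, an alcohol dehydrogenase (7.21 and 6.70, 11.24 and 10.74, and 7.30 and 7.40, a change of 4.04 ± 0.19 SE), Rnase4 (2.19), Gsta4, a glutathione transferase (1.95), Hddc3 (at least 3.93-fold) and Serpina3j (at least 8.91-fold). Lower were Sod3, extracellular superoxide dismutase (-5.57), Il1f8, an interleukin-1 family cytokine (-3.85), Gdpd3 (-3.74), Hal, histidine ammonia-lyase, which makes urocanate in the upper epidermis (-3.67), Paqr7 (-3.40), Tmprss11f, a membrane protease (-3.31), and Atp6v1c2, a proton pump subunit (-3.18). Sod3 was at 11.73 and 10.03, 5.72 and 4.90, and 10.52 and 9.20, and Paqr7 at 10.31 and 9.86, 6.74 and 6.64, and 9.36 and 9.36. Both were lower in each Sox11-array sample than in the other 4. For Sod3, Il1f8 and Tmprss11f only replicate 1 of the Sox11 arrays was well above background in that set. In families of proteases and inhibitors, 5 of 13 kallikrein genes were lower in the Sox11 than in the Sox4 set (1.99% over all genes), among them Klk9 (-3.08, adjusted p = 0.000557) and Klk8 (-1.28, adjusted p = 0.00786), and 4 of 27 serpin B genes, among them Serpinb3b (-3.16, adjusted p = 0.00302), while Klk11 was not called (-0.71, adjusted p = 0.0948).

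Set against the Sox11 arrays, the dcKO-array samples gave these values, with the Sox11 samples shared by both comparisons. Higher were Lce1a1 (7.62), 2310057N15Rik (7.10, with replicate 2 of the Sox11 arrays not well above background), Sod3 (4.55), Smpd3 (3.83) and Saa1, a serum amyloid gene (3.01, at 9.50 and 9.13, 7.18 and 6.47, and 9.98 and 9.68). Lower were Adh6a (-3.64), Krt4 (-2.94), Ttc23 (-2.01), Gstt3, a glutathione transferase (-1.85), and Krt19 (-1.72). The junction gene Ocln (0.80, adjusted p = 0.0439) and the tubulin gene Tubb3 (1.44, adjusted p = 0.0273), from the Merkel cell and nerve list, were also higher. A second Ocln probe, detected in all 6 samples, was at 0.42 and not called.

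Counts in the other lists are for the Sox11 against the Sox4 set and stand beside 1.99% of all genes lower and 0.711% higher. None of the 15 basal genes was called in any comparison between sets, the median change was -0.03, and all 15 were detected in every sample, among them the hemidesmosome genes Itga6 (11.66 to 12.09) and Col17a1 (10.09 to 10.62) and the transcription factor gene Trp63 (10.92 to 11.45). Of 12 suprabasal genes 1, the desmosomal cadherin Dsc1, was lower on the Sox11 arrays (10.34 and 9.65, 9.10 and 8.45, and 9.92 and 9.70, -1.22, adjusted p = 0.0145). The count was 4 without replicate 1 and 0 without replicate 2 of the Sox11 arrays. Of 26 transcription factor genes of the epidermis, Prdm1 (Blimp1, -2.27, adjusted p = 0.0092) and Maf (-1.24, adjusted p = 0.0214) were lower, while Grhl3 (12.02 to 12.44, adjusted p = 0.673) and Klf4 (13.41 and 13.26, 12.93 and 11.99, and 13.35 and 13.00, adjusted p = 0.101) were not called. Among 18 barrier lipid genes, the lipoxygenase gene Aloxe3 (-2.02), the ceramide synthase gene Cers3 (-0.92, with a second probe at -0.54 and not called) and the lipid transporter gene Abca12 (-0.89) were lower (adjusted p from 0.00213 to 0.0369). None of 16 proliferation genes was called, and Mki67 ranged from 11.32 to 11.90. Of 17 hair bud genes, Bmp2 (-1.13) and Lhx2 (-0.96) were lower with adjusted p = 0.0214 and 0.0236, and Shh, Edar and Foxi3 were detected in no sample. Of 12 household genes 1 was lower and none higher.

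**Figure D5:**
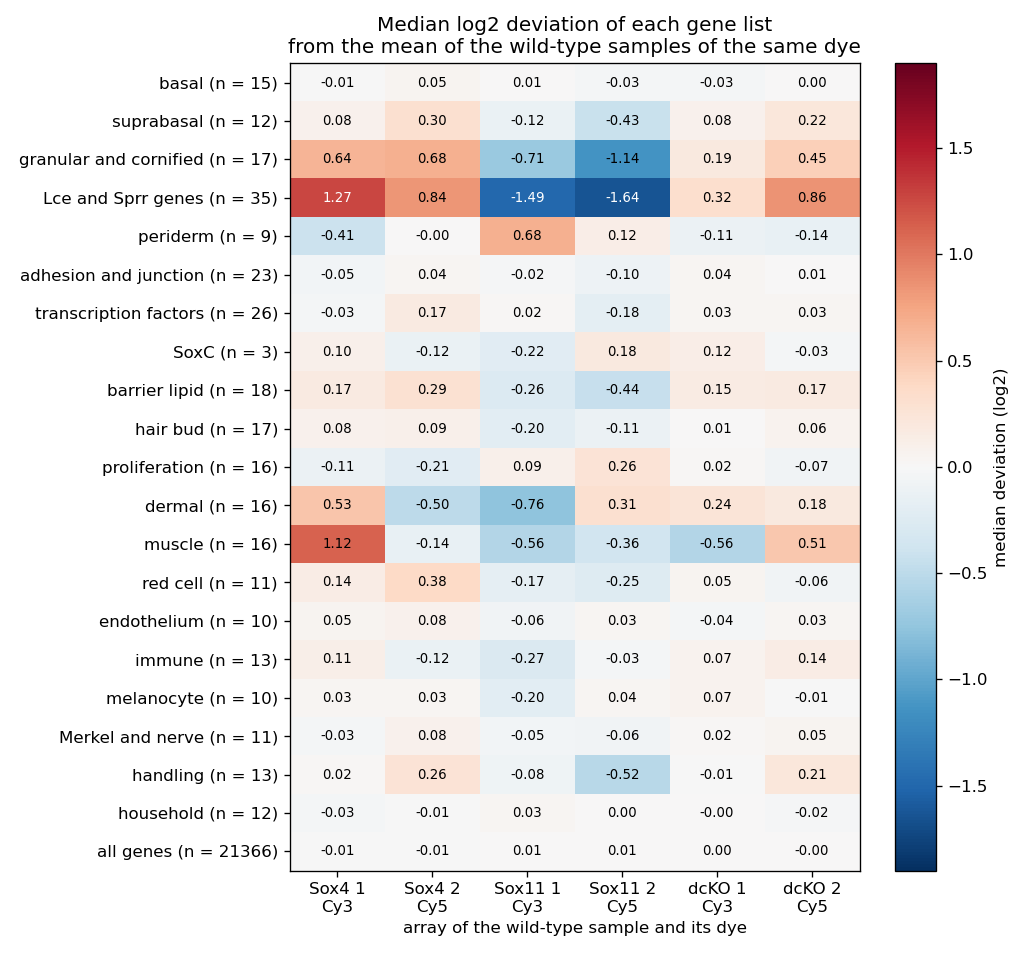
Median over each gene list (vertical axis, with the number of genes with a probe) of the log2 deviation from the mean of the wild-type samples of the same dye, for the 6 samples (horizontal axis). The Lce and Sprr genes are at -1.49 and -1.64 on the Sox11 arrays, the basal and household lists lie between -0.03 and 0.05 in every sample, and the muscle list is at 1.12 in replicate 1 of the Sox4 arrays.

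Markers of other cell types of skin varied between single samples. Collagen genes of fibroblasts were highest in replicate 1 of the Sox4 arrays: Col1a1 was at 11.39 and 8.11, 7.42 and 9.33, and 10.16 and 9.06, and Col3a1 at 11.09 and 7.59, 7.15 and 8.92, and 10.30 and 9.08. All 16 dermal genes were detected in at least 1 sample and 12 in all 6, and 1, Fn1, was called between the Sox11 and Sox4 sets (-1.23, adjusted p = 0.0268). Skeletal muscle genes were also highest in that sample. Actc1 was at 9.12 and 5.24, 5.71 and 4.95, and 6.11 and 7.64, and Tnnc2 at 8.78 and 6.06, 5.66 and 5.63, and 6.29 and 7.49. Of 16 muscle genes 3 were detected in all 6 samples and Des and Myog in none, and no muscle gene was called. The same sample had the highest Lce1 values, and the part of these cells in that was not tested.

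Of 11 red cell genes 8 were detected in all 6 samples, among them the globin genes Hba-a1, Hba-a2 and Hbb-bt, each lowest in replicate 2 of the Sox11 arrays, while the embryonic globin gene Hbb-bh1 was detected in 1 sample. Hba-a1 was at 14.30 and 13.65, 13.33 and 11.51, and 13.80 and 13.07 (-1.55, adjusted p = 0.035), Hbb-bt at 13.96 and 13.20, 13.01 and 11.70, and 13.56 and 12.74 (-1.22, adjusted p = 0.0166), and Alas2, the heme enzyme of red cells, at 8.54 and 7.86, 7.51 and 6.15, and 8.08 and 7.19 (-1.37, adjusted p = 0.0142). These 3 of the 11 were lower in the Sox11 than in the Sox4 set, beside 1.99% of all genes. The part of blood in the other differences between those sets was not tested. Of 13 immune genes Csf1r was lower (9.23 and 8.78, 7.73 and 7.06, and 8.54 and 8.27, -1.61, adjusted p = 0.00359), but a second probe detected in all 6 samples did not show this (6.24 and 6.07, 6.32 and 5.98, and 6.12 and 6.11, adjusted p = 0.998) and another was not called (-0.40, adjusted p = 0.303), so the probes of this gene disagree. Of the same list Ptprc, Lyz2, Cd207 and H2-Aa were detected in no sample. Of 10 melanocyte genes 8 were detected in all 6 samples, with Dct between 10.80 and 11.32 and Pmel between 9.32 and 9.88, although Tyrp1, at the edge of detection, was at least 1.99-fold lower on the Sox11 arrays. Of 10 endothelial genes 2 were detected in all 6 samples and 4 in none, and of 11 Merkel cell and nerve genes 3 and 5, Atoh1 being detected in 2 samples. Immediate early genes, which respond to tissue handling, included Jun and Egr1, detected in every sample (Jun 14.44 to 15.12, Egr1 13.06 to 13.56), and none of the 13 was called. In replicate 2 of the Sox11 arrays Atf3 was at 10.42 against 12.53 to 12.91 in the other 5.

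A few genes separated the sets without belonging to any list. Nr1h5, a nuclear receptor gene, was at 8.18 and 7.84 on the Sox4 arrays and at 4.66 and 4.93, and 4.59 and 4.6, on the others, with knockout partners at 7.68 and 8.04, 4.77 and 4.84, and 4.64 and 4.38. It was at least 8.21-fold lower in the dcKO than in the Sox4 set (adjusted p = 0.000935). Tle1, a corepressor gene, was at 6.73 and 6.31, 6.79 and 6.60, and 9.53 and 9.41 (dcKO minus Sox4, 2.95 ± 0.15 SE, adjusted p = 0.000935), and its 3 other probes had changes of 0.54 to 1.05 that were not called. Dcun1d1 was at 6.03 and 6.40, 9.0 and 9.11, and 8.47 and 9.17 (2.60, adjusted p = 0.0045), but its second probe stayed between 7.65 and 7.98, so the probes of this gene disagree. Lnx2, Gm5801 and Gys2 complete the 6 genes that separated the dcKO from the Sox4 set. Lnx2 was at 5.45 and 5.64, 7.77 and 7.64, and 7.69 and 7.83, with a Sox4cKO partner at 7.16 on replicate 1 and 5.33 on replicate 2. Gm5801 was at least 3.93-fold higher and Gys2 at least 1.89-fold lower in the dcKO than in the Sox4 set. Pop4, a subunit of RNase P, differed between single samples, at 6.27 and 9.58, 6.56 and 6.86, and 9.68 and 9.61, and its knockout partners were at 9.46 and 6.5, 9.92 and 6.40, and 9.38 and 9.42. Pop4 thus differed by about 3 log2 units between the 2 channels of 3 arrays.

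Xist, transcribed from the inactive X chromosome, was at 8.98 and 9.49 in replicate 2 of the Sox4 and Sox11 arrays and between 4.65 and 4.93 in the other 4 samples. The Y-linked Eif2s3y was at 4.40 and 4.42 in those 2 samples and between 9.41 and 9.58 in the others, and Ddx3y at 4.48 and 4.61 against 8.54 to 8.82. Knockout partners had the same pattern array by array, with Xist at 9.03 and 9.13 on the same 2 arrays and at most 4.79 on the rest. The methods state that both sexes were used. The 2 samples with Xist belong to different sets. The part of sex in the differences between sets was not tested.

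Between wild-type samples labelled with Cy5 and with Cy3, which are also replicates 2 and 1, no gene was called (0%), although 8107 of 55681 probes had an unadjusted p under 0.05 and the smallest adjusted p in limma's fit was 0.112. Dye and replicate number coincide in this design and cannot be told apart.

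Against the mean of the 3 knockouts, fitted on the ratio within each array, wild type was higher in 80 genes (0.374%) and lower in 115 (0.538%), and 1 gene, Lce1b, passed an absolute log2 change of 1.5. Higher in wild type were Plppr3, a lipid phosphatase-related membrane protein (1.32 ± 0.08 SE), Tes, a focal adhesion protein (1.01), Fap (0.95), Wdr86 (0.92), Ttyh3 and the actin-binding Tmsb10 (both 0.88), Pxdn and Tox3 (both 0.83), Nsg1 and Gm4907 (both 0.80). Lower in wild type were Lce1b (-1.51 ± 0.07 SE), Sdcbp2 (-1.37), Hal (-1.29), Cyp2b10 (-1.18), Tmem229b and Slurp1 (both -1.16), Pla2g5 (-1.0), Klk7 (-0.97), and Lce1c and Lce1j (both -0.95). Their adjusted p-values ran from 0.000227 to 0.0062. The mean over 3 genotypes hides differences between arrays. Plppr3, for example, was at 6.76 and 7.62, 7.69 and 7.90, and 7.81 and 7.70 in wild type, and at 5.27 and 5.92 in Sox4cKO, 7.74 and 8.0 in Sox11cKO, and 5.23 and 5.40 in dcKO epidermis. Of the 35 Lce and Sprr genes 14 were lower in wild type and none higher (5 without the replicate block and 8 without replicate 2 of the Sox11 arrays), and of the 9 periderm genes Krt17 (0.76) and Krt4 (0.66) were higher. Krt5, Krt14 and the other basal genes were not called here either. Set beside each other, Lce1a1 differed by -0.54 ± 0.08 (SE) between wild type and the mean knockout and by -8.41 ± 0.30 (SE) between wild-type samples of the Sox11 and Sox4 arrays, and Krt4 by 0.66 and 3.22. The mean knockout covers unlike genotypes here too. On the dcKO arrays Lce1a1 was at 14.17 and 13.30 in wild type and 15.99 and 15.96 in the knockout. On the Sox11 arrays it was higher in wild type, at 6.75 and 5.47 against 5.54 and 5.43. Krt4 was lower in wild type on the Sox4 arrays (6.62 and 7.48 against 7.81 and 8.26) and higher on the others. Without replicate 2 of the Sox11 arrays the number of probes called between wild type and the knockouts was 59 in place of 257, and without replicate 1 of the Sox4 arrays it was 85.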

How the data were processed

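The authors hybridised amplified RNA (25 ng, per the study's methods) of 6 wild-type and 6 knockout epidermis samples to 6 two-colour Agilent arrays on 1 slide and deposited the Agilent Feature Extraction 11.0.1.1 output, whose values are spot intensities. The submitters' processing notes also name limma 3.5, and the study's methods state normexp background correction with offset 16, loess normalisation, removal of the colour effect with ComBat, moderated t-statistics and Benjamini-Hochberg adjustment.

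Here the deposited median intensities and local background of both channels were corrected with normexp (offset 16), normalised within arrays by loess and between arrays by Aquantile in limma 3.58.1 (R 4.3.3). Control spots and outlier spots were left out, and spots of a probe averaged. No ComBat step was run, and the dye was a term of the fit instead. The wild-type log2 channel values were fitted with set and dye, with moderated F and t-statistics over all 55681 probes (55680 where a missing value dropped a probe) and adjusted p under 0.05. Wild type against the mean knockout was fitted on the log2 ratios. The fits were run in R on simulated data with the same spread for every probe, unlike these samples, and the outcome is not reported here. Python 3.11.15, numpy 2.4.6 and pandas 2.3.3 were used for the summaries and matplotlib 3.10.9 for the plots.

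Replicate number and dye coincide, so the dye term is also the replicate block. Differences of replicate 1 minus replicate 2 correlated between sets across 10742 genes at 0.18 (Sox4 and Sox11), 0.37 (Sox4 and dcKO) and 0.33 (Sox11 and dcKO). Of the probes, 28335 had a symbol of 21366 genes (5756 with several probes) and 27346 had none. A gene stands for its brightest named probe. Symbols are those of RefSeq genes, matched through the transcript accession or symbol that the array's annotation gives, which can be old. Genes given with values are the markers, the brightest and the called members of each list, the 30 brightest, the 20 most variable and 10 steadiest genes, and up to 10 called genes in each direction of a test; other genes named were chosen after their values were seen. The members, the gene lists, the families and the promoter motif were chosen with earlier results of these data known. The series' table of processed values was not used. Some genes that the rule names are not reported here.

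Alternatives were another normexp offset, no background subtraction, a filter on dim probes, other normalisations, no replicate block and leaving out each sample. The scanner software's processed signal was added after seeing the data.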

Additional observations from a re-analysis of the deposited data

Results flagged for a closer look

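Of 235 values with 1 value in each of the 6 wild-type samples, 6 had a sample far from the others, by a gap to the nearest sample divided by the whole range above Dixon's critical value for 6 samples. Chance alone marks about 1 in 20 groups of 6 independent values. Most values here were centred on the mean of their dye, so that rate is only a rough guide. Replicate 2 of the Sox11 arrays was low for Atf3, a stress-response transcription factor gene (0.627), and for Gjb2, a connexin gene (0.626). Replicate 1 of the Sox11 arrays was low for the median of the melanocyte genes (0.704). Replicate 1 of the dcKO arrays was high in the number of genes well above background (12327, 0.648). Replicate 2 of the dcKO arrays was high for the Y-linked genes Eif2s3y (0.656) and Ddx3y (0.637) only relative to its dye, because values were centred on the mean of each dye and the other 2 Cy5 samples were those with Xist and without Y-linked signal. Uncentred, its Ddx3y value (8.54) was the lowest of the 4 samples in which the gene was detected (up to 8.82).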

How the results depend on the processing

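No called difference of a named gene turned its direction under any alternative run, and differences that were not called were not checked. The alternatives used the same scans in which these genes were called, so the kept direction is no separate check. The balance of 2 counts did turn without replicate 2 of the Sox4 arrays. These were dcKO against Sox4 (7 probes higher and 4 lower as reported) and wild type against knockouts (114 higher and 143 lower as reported). In the tests between wild-type sets, the scanner software's processed signal, with or without a filter on dim probes, called 0 probes (unadjusted p under 0.05 in 4775 for any difference and 5674 for Sox11 against Sox4 without the filter). With no background subtraction the counts were 1087 for any difference (648 as reported), 1343 for Sox11 against Sox4 (821), 24 for dcKO against Sox4 (11), 952 for dcKO against Sox11 (560), 6 for the dye (0) and 882 for wild type against knockouts (257). An offset of 50 gave 1336 for Sox11 against Sox4, 1222 for wild type against knockouts and a median SD between samples of 0.147. The filter on dim probes gave 207 for any difference, 7 for dcKO against Sox4 and 209 for dcKO against Sox11, quantile normalisation gave 17 for dcKO against Sox4, and scaling to the 75th percentile gave 22825 for the dye. The causes were not tested. Without the replicate block the counts were 244 for any difference, 357 for Sox11 against Sox4, 174 for dcKO against Sox11 and 93 for wild type against knockouts.

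Leaving out 1 sample gave 569 to 937 probes for any difference, 560 to 1084 for Sox11 against Sox4, 19 to 96 for dcKO against Sox4, 131 (without replicate 2 of the dcKO arrays) to 926 (without replicate 1 of the Sox11 arrays) for dcKO against Sox11, 34 to 72 for the dye, and 59 (without replicate 2 of the Sox11 arrays) to 330 for wild type against knockouts, with the lone sample of a set assumed to vary like the others. Genes detected in every sample left numbered 10756 to 10891. Probes near background, with an offset of 16, understate differences.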
